A study of Homo sapiens with 66 samples.

Results

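The genes ROBO2 and SMYD3 were examined as example loci of HIF-2-only binding, in the peak lists of a ChIP-seq study of the hypoxia-inducible factor (HIF) subunits in human cell lines. They are 2 of 19821 protein-coding genes annotated on the chromosomes used. Their members are the peaks whose centre lay in the gene body or within 200 kb of a transcription start site (TSS) of the gene. Overlapping peaks of all libraries were merged into sites. This gave 146 of 131131 peaks and 43 of 50169 merged sites, 17 at ROBO2 and 26 at SMYD3. Both genes were chosen by the HIF-1α and HIF-2α calls and the HIF-2α score ranks in these same lists, which had shown HIF-2α peaks of high rank with no HIF-1α peak. The HIF-1α and HIF-2α calls and HIF-2α ranks at their leading sites are therefore given as a description, with no test.

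The series held 50 ChIP libraries and 16 inputs, and each ChIP library came with 1 peak list called against input. There were 16 HIF-1α, 16 HIF-2α and 18 HIF-1β libraries, in 25 groups of 2. Cells of HKC-8, an immortalised human renal proximal tubular line, were kept at an oxygen level of 0.5%, with harvests at 6, 16 and 48 h, or at 3% with a harvest at 6 h, and all 3 subunits were precipitated. In a second experiment, parental (WT), HIF-1α knockout and HIF-2α knockout HKC-8 cells were held in 0.5% oxygen for 16 h. Each knockout was 1 CRISPR-Cas9 clone, so clone and genotype cannot be told apart. Only HIF-1β was precipitated from all 3 genotypes, HIF-2α from WT and HIF-1α knockout cells, and HIF-1α from WT and HIF-2α knockout cells. RCC4 cells, a renal carcinoma line lacking functional VHL in which both HIF-α subunits are stable in air, were studied in normoxia, and HepG2 hepatoma cells in 0.5% oxygen for 16 h. Each subunit was precipitated with its own rabbit polyclonal antibody, and no HIF-2α library came from HIF-2α knockout cells. Whether a HIF-2α peak needs the HIF-2α protein was therefore not tested in these data. The study describes its replicates as independent ChIP experiments, and the labels do not say whether they came from separate cultures. The p-values measure the spread between these libraries.

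The lists held 237 to 8279 peaks, of 237 to 1793 in the oxygen and time experiment and 915 to 8279 in the knockout experiment. The lists carry no read depth and no signal outside peaks. A site absent from a list had no peak with a score of at least 50, and may lie just under that limit. In HepG2 the share of peaks within 1 kb of a protein-coding TSS was 6.73% and 28.7% in the 2 libraries labelled HIF-1α, and 30.6% and 8.08% in those labelled HIF-2α. The replicates of each label thus stood apart and each resembled 1 library of the other label, so isoform differences in HepG2 are uncertain. No HepG2 library had a peak at either leading site described below. No pair of the 50 libraries held identical intervals.

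HIF-1α and HIF-2α are degraded when oxygen is plentiful. In hypoxia either of them pairs with HIF-1β and binds the hypoxia response element, whose core reads ACGTG or GCGTG. A site is called canonical when an α subunit and HIF-1β are both found there. ROBO2 encodes a transmembrane receptor for SLIT ligands that steers growing axons and places the ureteric bud in the developing kidney. SMYD3 encodes a lysine methyltransferase with SET and MYND domains, which methylates the kinase MAP3K2 in the cytoplasm. A peak within a gene says where the factor was found and not that the gene responds to it.

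ROBO2 (ENSG00000185008.19_16) occupies chr3:75955846-77699115 on the plus strand of GRCh37, a length of 1743.3 kb. SMYD3 (ENSG00000185420.19_11) lies at chr1:245912644-246670614 on the minus strand and spans 758.0 kb. Sites are named by the distance of their centre from the first TSS of the gene in the direction of transcription. The lead site of a gene is the one found in the most HIF-2α libraries. For ROBO2 this was the +591.1 kb site at chr3:76546444-76547598, a merged interval of 1155 bp. It lay within 6 of the 18 annotated ROBO2 transcripts and overlapped no exon of any, 186.7 kb from the nearest ROBO2 TSS and upstream of the canonical transcript. For SMYD3 it was the +71.5 kb site at chr1:246598428-246599617, a merged interval of 1190 bp. This site lay in intron 1 of the canonical transcript, within 5 of 18 transcripts and over no exon, 18.4 kb from a SMYD3 TSS.

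The sequence at the centre of each lead site is printed because it holds a feature that the choice of genes did not use. Each line gives 300 bases of the GRCh37 plus strand, with matches to the pentamer ATTCC, read on either strand, in capitals. The windows are chr3:76546846-76547145 and chr1:246598922-246599221.
ROBO2 +591.1 kb: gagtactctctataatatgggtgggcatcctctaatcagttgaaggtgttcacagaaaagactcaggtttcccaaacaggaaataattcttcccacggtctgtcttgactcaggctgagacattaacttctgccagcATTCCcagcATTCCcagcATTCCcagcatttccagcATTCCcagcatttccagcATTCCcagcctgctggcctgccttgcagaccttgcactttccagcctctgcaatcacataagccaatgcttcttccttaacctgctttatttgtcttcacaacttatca
SMYD3 +71.5 kb: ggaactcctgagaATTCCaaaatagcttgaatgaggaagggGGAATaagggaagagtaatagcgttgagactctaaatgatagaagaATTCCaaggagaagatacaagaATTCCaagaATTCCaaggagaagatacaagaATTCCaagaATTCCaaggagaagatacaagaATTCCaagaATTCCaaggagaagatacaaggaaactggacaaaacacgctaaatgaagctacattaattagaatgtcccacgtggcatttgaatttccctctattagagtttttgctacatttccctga

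Both windows held short tandem repeats with this pentamer in them. The ROBO2 window had 5 matches, starting between positions -12 and 42 from the centre, and its bases equalled those 18 positions further on over a run of 32 positions. The SMYD3 window had 9 matches, starting between positions -136 and 31, and matched itself at a shift of 31 bases over 87 positions. Of all 50169 merged sites, 0.839% held at least 4 matches in a window of this length. Only 95 sites, 0.189%, held as many as the ROBO2 window and 6, 0.012%, as many as the SMYD3 window, each count including the site itself. The pentamer was picked because it recurred in both windows, so these shares are a description and no test. The response element core, as ACGTG or GCGTG on either strand, had no match in the ROBO2 window. The SMYD3 window had 3 matches that began 66 or more bases after the centre, of which the last 2 overlapped as both strands of the same element. At least 1 such match was present in 42.3% of all merged sites. The AP-1 element TGACTCA, read on either strand, matched at position -44 of the ROBO2 window and not in the SMYD3 window, and was present in 10.9% of all merged sites. These are matches of letters and not measured contacts.

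For comparison, the site of each gene found in the most HIF-1β libraries is printed with the response element core, on either strand, in capitals. These are the ROBO2 +225.6 kb site at chr3:76180896-76182025 and the SMYD3 +684.0 kb site at chr1:245985968-245987709. The windows are chr3:76181278-76181577 and chr1:245986464-245986763.
ROBO2 +225.6 kb: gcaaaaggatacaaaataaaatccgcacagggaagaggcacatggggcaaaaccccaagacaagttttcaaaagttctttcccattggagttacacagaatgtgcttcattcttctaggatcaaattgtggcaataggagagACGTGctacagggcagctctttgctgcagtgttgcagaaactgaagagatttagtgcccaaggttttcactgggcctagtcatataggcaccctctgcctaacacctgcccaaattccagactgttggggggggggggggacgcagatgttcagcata
SMYD3 +684.0 kb: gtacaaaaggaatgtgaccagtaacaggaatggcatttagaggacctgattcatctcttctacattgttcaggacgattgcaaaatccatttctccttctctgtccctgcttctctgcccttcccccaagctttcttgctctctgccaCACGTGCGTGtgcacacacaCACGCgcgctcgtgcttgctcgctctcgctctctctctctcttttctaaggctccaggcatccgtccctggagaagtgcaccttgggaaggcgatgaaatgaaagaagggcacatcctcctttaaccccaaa

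At both of these sites a match to the core lay near the centre. The ROBO2 window had 1 match, which began at position -7. The SMYD3 window had 4, beginning at positions -1, 0, 4 and 19, some of which overlapped. They held 1 and 2 matches to the pentamer, which were shared by 47.1% and 15.4% of all merged sites at that number or more. The ROBO2 site lay in 5 of 18 transcripts outside every exon, and the SMYD3 site in intron 10, in 8 of 18 transcripts and no exon.

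HIF-2α was found at the ROBO2 lead site in 14 of 16 libraries, HIF-1α in 0 of 16 and HIF-1β in 1 of 18. The HIF-2α peak ranked 4 of 1417 and 16 of 1493 by score within its list after 6 h in 0.5% oxygen, 30 of 1198 and 29 of 1051 after 16 h, and 44 of 1383 and 14 of 237 after 48 h. In 3% oxygen it ranked 1 of 558 and 11 of 977. The site was thus near the top of all 8 HIF-2α lists of the oxygen and time experiment, at mild and severe hypoxia and at every time. In the knockout experiment the peak ranked 72 of 4537 and 279 of 6749 in WT cells, and 478 of 5228 and 942 of 6540 in HIF-1α knockout cells. RCC4 cells gave ranks of 233 of 4317 and 121 of 2990. Across the 14 libraries it lay in the top 0.179% to 14.4% of its list with a median of 2.97%, and in the top 10% in 13 of them. Both HepG2 HIF-2α libraries lacked it.

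HIF-2α was found at the SMYD3 lead site in 13 of 16 libraries, and neither HIF-1α, in 0 of 16, nor HIF-1β, in 0 of 18, had a peak there. In 0.5% oxygen the HIF-2α peak ranked 100 of 1417 and 39 of 1493 at 6 h and 86 of 1198 and 138 of 1051 at 16 h. At 48 h replicate 1 had no peak, whereas in replicate 2 it ranked 7 of 237. In 3% oxygen the ranks were 33 of 558 and 37 of 977. The single missing HKC-8 library shows that the replicates at 48 h did not give the same call. WT cells gave ranks of 88 of 4537 and 611 of 6749, and HIF-1α knockout cells 1643 of 5228 and 2127 of 6540. The highest positions were in RCC4 cells, at 25 of 4317 and 10 of 2990. The peak lay in the top 0.334% to 32.5% of the 13 lists, with a median of 5.91%, and in the top 10% in 10 of them. The site had 15 peaks in 13 libraries, since some lists split it.

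**Figure D1:**
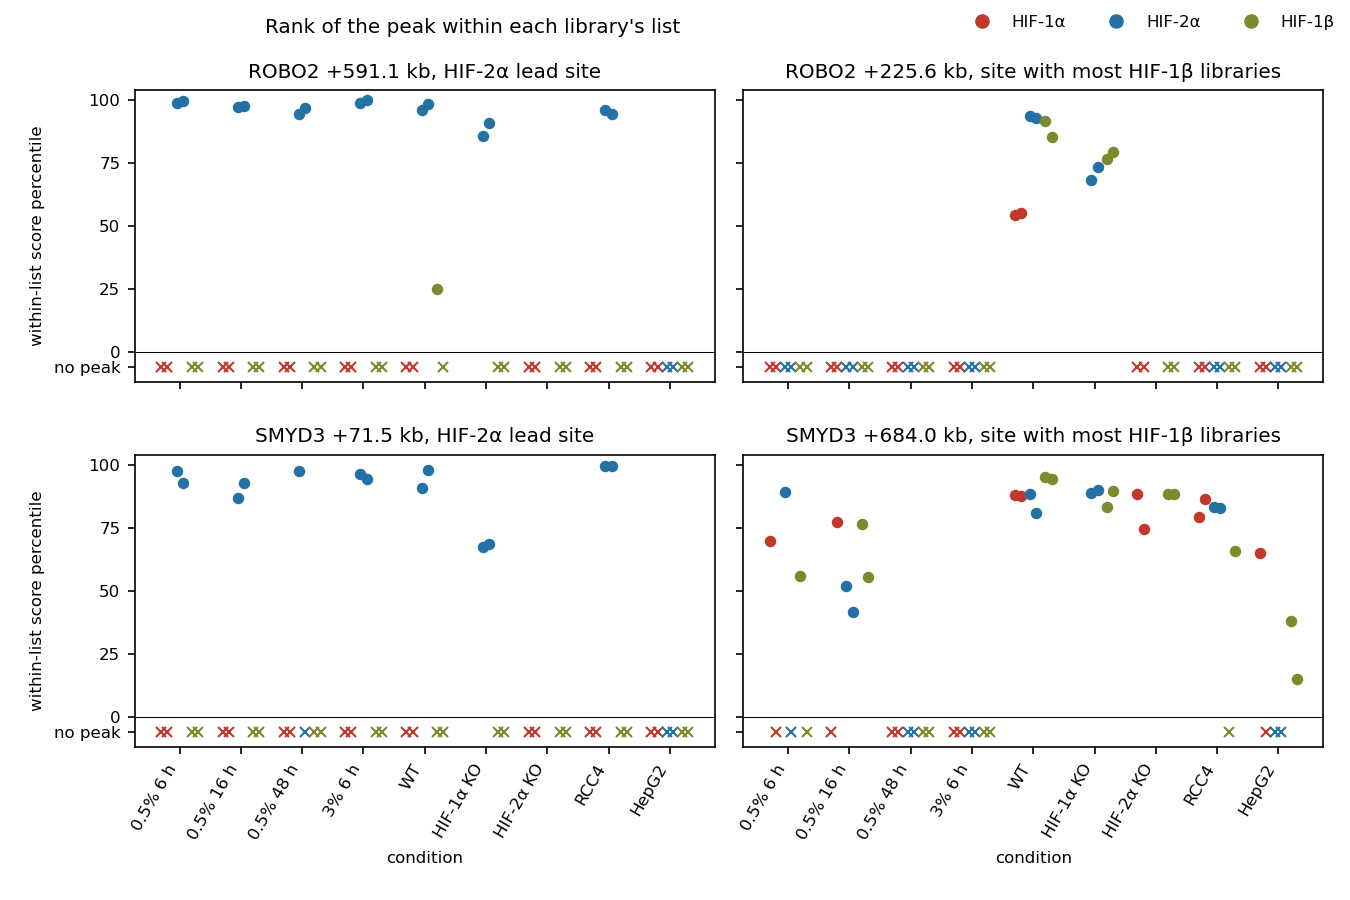
Within-list score percentile (y axis, 100 is the best peak of a list) of the peak at 4 sites in each library, by condition (x axis). Each point is 1 library, coloured by antibody, and crosses are libraries with no peak. At the ROBO2 +591.1 kb and SMYD3 +71.5 kb sites HIF-2α lay between the 67.5 and 100 percentiles wherever it was found, whereas all 3 antibodies were found at the SMYD3 +684.0 kb site.

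The background shows which of these calls were common. Of 3750 sites in both WT HIF-2α lists, 62.1% had no HIF-1α peak in either WT list, so the lack of a HIF-1α peak was usual in these WT lists. By contrast, 4.35% of these 3750 sites, 163 in number, had no HIF-1β peak in either WT list, as at the SMYD3 lead site. Ordered by mean WT HIF-2α percentile, the SMYD3 site stood at 278 of 3750 and was the highest of those 163, and the ROBO2 site stood at 139. HIF-2α rank was part of the choice of genes, so these positions are a description. In RCC4 cells 24.4% of the sites in both HIF-2α lists had no HIF-1α peak, and 61.6% had no HIF-1β peak. The RCC4 HIF-1β lists held only 911 and 1305 peaks, so a missing HIF-1β peak was common there. The WT HIF-1α lists were also short, with 1913 and 1535 peaks against 4537 and 6749 for WT HIF-2α. The part of list length in the share of 62.1% was not tested. Of the WT HIF-2α sites 69.4% were in both HIF-1α knockout HIF-2α lists, 18.7% were in both RCC4 HIF-2α lists, and 85.9% were in neither HepG2 HIF-2α list. Both lead sites had HIF-2α in the knockout and in RCC4 cells and lacked it in HepG2 cells.

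Sites as widespread as these in the HIF-2α lists usually had HIF-1β too. At least 10 HIF-2α libraries held a peak at 306 sites, where the median number of HIF-1α libraries was 6 and of HIF-1β libraries 13. No HIF-1α peak in any library was the case at 8.50% of the 306, and at most 1 HIF-1β library at 4.58%, or 14 sites. Of the 99 sites in at least 13 HIF-2α libraries, the ROBO2 and SMYD3 lead sites were the 2 with at most 1 HIF-1β library. Both limits equal counts of the lead sites themselves. A site nearest to RND3 lay just outside, with 13 HIF-2α and 2 HIF-1β libraries. No HepG2 HIF-2α peak was the state of 48.7% of the 306. These counts include the values that chose the genes and are a description.

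**Figure D2:**
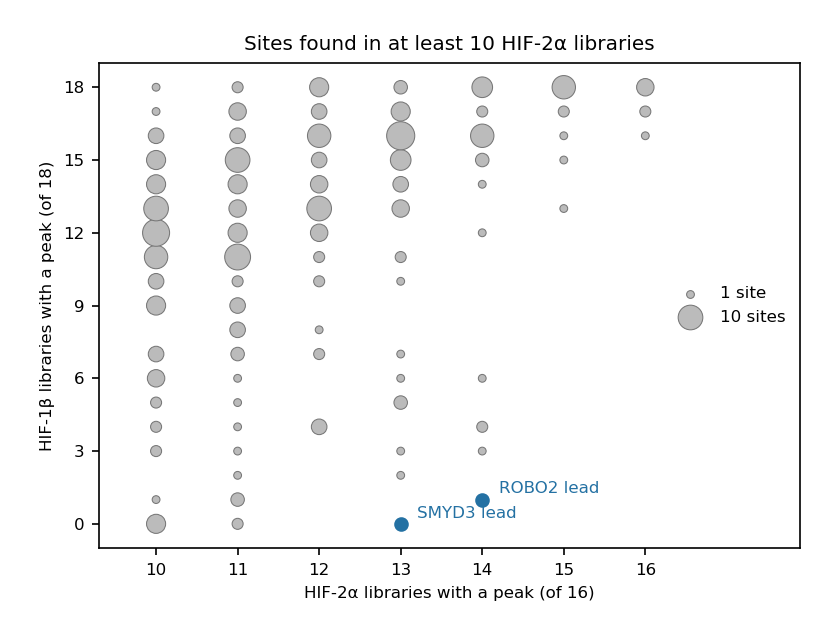
Number of HIF-1β libraries with a peak (y axis, of 18) against number of HIF-2α libraries with a peak (x axis, of 16) for the 306 sites found in at least 10 HIF-2α libraries. Grey circles have an area in proportion to the number of sites, and blue points are the lead sites. The ROBO2 and SMYD3 leads lie at 14 and 13 HIF-2α libraries with 1 and 0 HIF-1β libraries, under the median of 13.

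The HIF-2α rank of both lead sites was lower in HIF-1α knockout than in WT cells. At ROBO2 the percentile was 97.2 ± 1.81 (SD, n = 2) in WT and 88.2 ± 3.72 (SD, n = 2) in HIF-1α knockout cells. At SMYD3 it was 94.5 ± 5.04 (SD, n = 2) and 68.0 ± 0.778 (SD, n = 2). The groups did not overlap at either site, but an exact permutation test of 2 against 2 libraries cannot give a two-sided p under 0.333. Of 491 sites with a mean WT percentile of at least 90 and a peak in both knockout libraries, 33.0% likewise had both knockout values under both WT values. The median of WT minus HIF-1α knockout over the 491 was 0.42, against 8.91 at ROBO2 and 26.5 at SMYD3, and 10.8% and 3.46% of the sites had a larger difference than these. A high WT rank was part of why the genes were chosen, and the knockout is 1 clone.

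HIF-1β peaks at the lead sites were nearly absent from the lists before any knockout. The study measured HIF-1β signal at its HIF-2α sites in HKC-8 cells and reported it above background at virtually all of them. The lists do not hold that signal, so HIF-1β under the peak limit at the lead sites was not tested. The single HIF-1β peak at ROBO2 was in WT replicate 2, with a score of 73.45 and a rank of 6218 of 8279, in the longest list of the series. WT replicate 1, both HIF-1α knockout and both HIF-2α knockout libraries had none. The within-list percentile, set to 0 without a peak, differed by 6.23 between the mean of the WT and HIF-1α knockout libraries and the mean of the HIF-2α knockout libraries (p = 1, two-sided exact permutation test of 4 against 2 libraries, where the smallest p is 0.133; adjusted p = 1). At SMYD3 all 6 libraries had no HIF-1β peak, so the difference was 0 (exact permutation p = 1) and the test has nothing to compare. Whether HIF-1β was lost with HIF-2α could thus not be asked at the lead sites.

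Some other sites of these genes did have HIF-1β peaks, and there the calls could be compared between the genotypes. At the ROBO2 +225.6 kb site the HIF-1β percentile was 85.5 and 91.6 in WT, 79.3 and 76.6 in HIF-1α knockout, and no peak was found in either HIF-2α knockout library. The 4 libraries with HIF-2α present thus all had a peak and the 2 without had none, a difference in means of 83.3. The site was picked for its number of HIF-1β libraries, and its only 4 are the WT and HIF-1α knockout libraries of this comparison, so the difference is a description. The two-sided exact permutation p of 0.133 (adjusted p = 0.333 over 5 tests) is the smallest that 4 against 2 libraries allow. As a floor value at a site picked by its HIF-1β calls, it cannot decide the question either way. At the SMYD3 +684.0 kb site HIF-1β peaks were found in all 3 genotypes. This site was picked in the same way, by a count that included the HIF-2α knockout libraries. A peak in those libraries was thus favoured by the choice, so the values are a description and the p-values cannot decide the question. The HIF-1β percentile was 94.5 and 95.4 in WT, 89.7 and 83.5 in HIF-1α knockout, and 88.5 and 88.4 in HIF-2α knockout libraries. The difference in means was 2.36 (exact permutation p = 0.533, adjusted p = 0.889). It was 1.10 without replicate 1 and 3.62 without replicate 2. Against WT alone it was 6.57, with both WT values above both HIF-2α knockout values (exact permutation p = 0.333, the smallest that 2 against 2 libraries allow).

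In the background, 52.9% of 5046 sites in both WT HIF-1β lists had no HIF-1β peak in either HIF-2α knockout list, and 31.3% had none in either HIF-1α knockout list. For the 1772 sites with HIF-2α and HIF-1β in both WT lists and no HIF-1α in WT, the share without HIF-1β in HIF-2α knockout cells was 70.4%. The HIF-1β lists held 6199 and 8279 peaks in WT, 3387 and 5786 in HIF-1α knockout, and 2550 and 2085 in HIF-2α knockout cells. The part of list length in these losses was not tested.

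Of the sites with HIF-1β in both WT lists, 3 more lay at these genes. At ROBO2 +1918.9 kb (chr3:77874066-77875455) the percentile was 40.4 and 46.4 in WT and 7.91 in 1 HIF-1α knockout library, with no peak in the other or in HIF-2α knockout cells. At SMYD3 +632.2 kb (chr1:246037820-246038946) it was 68.5 and 85.7 in WT, absent in HIF-1α knockout, and 28.6 in 1 HIF-2α knockout library. At SMYD3 +520.5 kb (chr1:246149298-246150766) it was 9.47 and 61.8 in WT and absent in both knockouts. At the last 2 sites HIF-1β was thus missing from both HIF-1α knockout libraries as well as from at least 1 HIF-2α knockout library.

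**Figure D3:**
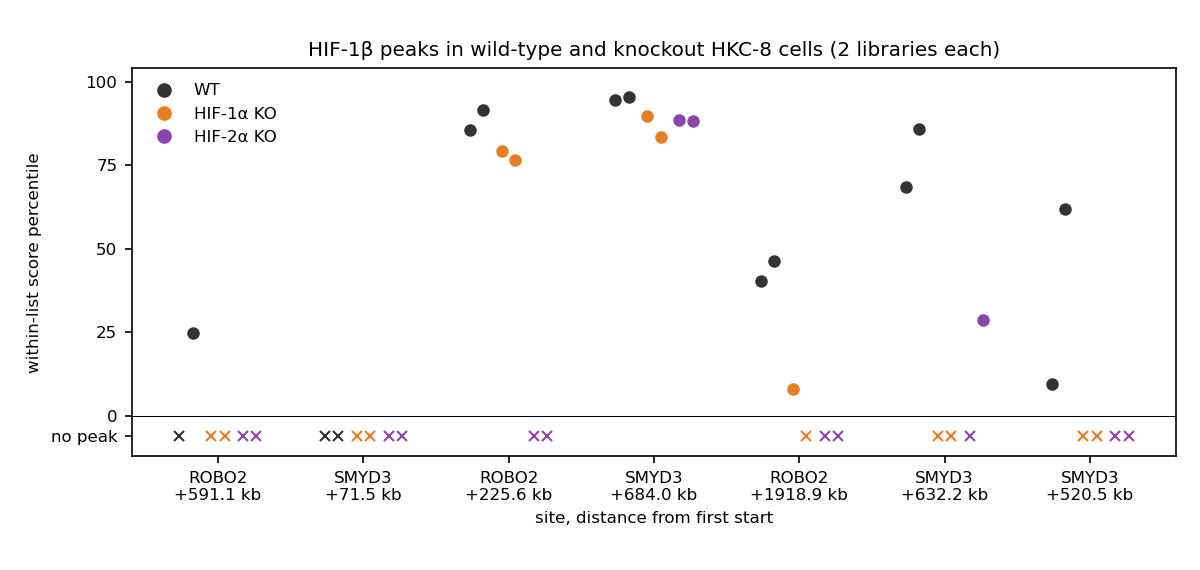
Within-list percentile of the HIF-1β peak (y axis) at 7 ROBO2 and SMYD3 sites (x axis) in WT, HIF-1α knockout and HIF-2α knockout HKC-8 cells, with 2 libraries each. Points are libraries with a peak and crosses are libraries without. ROBO2 +225.6 kb has peaks in the 4 WT and HIF-1α knockout libraries and in 0 HIF-2α knockout libraries, and SMYD3 +684.0 kb has them in all 6.

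HIF-1α was found elsewhere in both genes. At least 1 peak in the ROBO2 region was present in 5 of 16 HIF-1α, 15 of 16 HIF-2α and 6 of 18 HIF-1β libraries. The SMYD3 region had one in 12, 15 and 14 libraries. How often other regions of such length hold a peak was not counted, so these counts are a description of the regions. Apart from the +225.6 kb site, the HIF-1α peaks at ROBO2 lay at 5 sites found in 1 library each. Their scores were 50.68 to 61.43, not far above the score limit of the lists. At ROBO2 +225.6 kb HIF-1α had peaks in both WT libraries, of rank 862 of 1913 and 700 of 1535, so this site bound both isoforms. HIF-2α ranked there at 328 of 4537 and 416 of 6749 in WT and at 1400 of 5228 and 2067 of 6540 in HIF-1α knockout cells. None of its 10 libraries came from the oxygen and time experiment, RCC4 or HepG2, nor did either HIF-1α library of HIF-2α knockout cells have it.

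SMYD3 +684.0 kb was the most widely found site of either gene, in 9 HIF-1α, 9 HIF-2α and 12 HIF-1β libraries. HIF-1α ranked at 233 of 1913 and 181 of 1535 in WT, 322 of 1271 and 106 of 915 in HIF-2α knockout, and 769 of 5680 and 441 of 2120 in RCC4 cells. HIF-2α ranked at 873 of 4537 and 790 of 6749 in WT, 528 of 5228 and 717 of 6540 in HIF-1α knockout, and 740 of 4317 and 504 of 2990 in RCC4 cells. Each isoform was thus found there in both libraries from cells lacking the other. In the oxygen and time experiment the site appeared at 6 and 16 h in 0.5% oxygen, and in no library at 48 h or in 3% oxygen. At 6 h each antibody had it in replicate 2 only, and at 16 h HIF-1α had it in replicate 1 only. The lists of this experiment were short, at 237 to 1793 peaks. A difference between its conditions at this site was not tested. In HepG2 it was in both HIF-1β libraries and in 1 labelled HIF-1α.

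ROBO2 had 3 sites and SMYD3 12 sites in at least 2 libraries. The third ROBO2 site, at +1918.9 kb, had 3 HIF-2α and 3 HIF-1β libraries from WT and HIF-1α knockout cells and no HIF-1α. Its HIF-2α rank was 3641 of 6749 in WT replicate 2, and 2734 of 5228 and 5812 of 6540 in HIF-1α knockout cells. This site lay 196.5 kb from the last ROBO2 TSS, just within the limit, and the nearest site outside it, at 218.9 kb, had 2 HIF-1α libraries and 1 HIF-1β library. At SMYD3 the nearest site outside lay 203.4 kb from a TSS with 1 HIF-1α and 1 HIF-2α library.

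The SMYD3 +520.5 kb site was the other HIF-2-only site of the gene in WT cells. It had HIF-2α at 4304 of 4537 and 2135 of 6749, HIF-1β in both WT libraries and no other peak. SMYD3 +632.2 kb had HIF-2α in WT replicate 2, at 1178 of 6749, and in 1 HIF-1α knockout library, and HIF-1α in WT replicate 2 at 1180 of 1535. The HIF-2α percentiles were 5.16 and 68.4 at +520.5 kb and 82.6 in WT and 23.3 in HIF-1α knockout cells at +632.2 kb. In WT cells all of these lay under both values of the lead site, whereas the lead itself was at 68.6 and 67.5 in HIF-1α knockout cells.

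RCC4 cells had a further site close to the SMYD3 lead. The +78.6 kb site (chr1:246590789-246592659), also in intron 1, was found only in RCC4, with HIF-2α at 874 of 4317 and 1085 of 2990, both HIF-1β libraries, and HIF-1α in replicate 2 at 527 of 2120. Both it and the lead site were thus in both RCC4 HIF-2α lists, but HIF-1β peaks were found at the +78.6 kb site alone. They ranked 257 of 911 and 1268 of 1305, the latter with a score of 50.4, near the limit of 50. No HIF-1β peak was the state of 61.6% of sites in both RCC4 HIF-2α lists. The SMYD3 promoter site (chr1:246669452-246671245), over exon 1, had no HKC-8 library and had HIF-1α in RCC4 replicate 1 at 1227 of 5680, besides 4 HepG2 libraries. Sites at +696.3, +319.1 and +225.4 kb were found only in HepG2, in 6, 3 and 2 libraries. The remaining sites in 2 or more libraries were at +364.6 kb, with 1 WT HIF-2α, 2 HIF-1β and 1 RCC4 HIF-1α library, +28.3 kb, with 2 HIF-1α libraries from RCC4 and HepG2, and -101.8 kb, within CNST, with both HIF-2α libraries of HIF-1α knockout cells and 1 HIF-1β library each of WT and HIF-1α knockout cells.

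Single libraries supplied the other 14 sites of each gene. At each gene 5 were in a HIF-1α, 4 in a HIF-2α and 5 in a HIF-1β library.

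**Figure D4:**
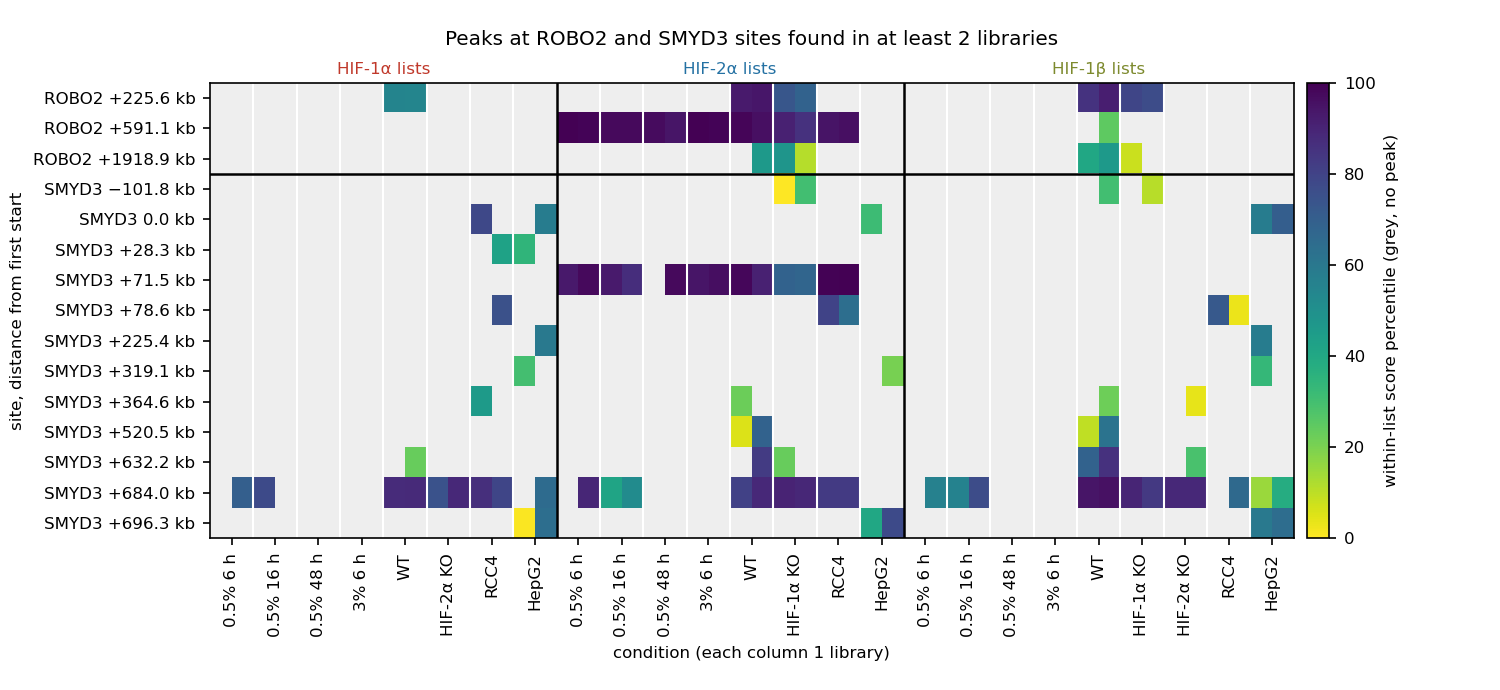
Sites of ROBO2 and SMYD3 found in at least 2 libraries (rows, by distance from the first TSS) against the 50 libraries (columns, by antibody and condition). Colour gives the within-list score percentile and grey marks no peak. The ROBO2 +591.1 kb and SMYD3 +71.5 kb rows are filled in 14 and 13 HIF-2α columns and in 1 and 0 HIF-1β columns.

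Other sites were ranked by how alike their calls were to those of each lead site over the 50 libraries. The measure was the Jaccard index, the number of libraries with both sites over the number with either, for 6972 other sites found in at least 5 libraries. The 2 lead sites shared 13 of 15 libraries, an index of 0.867. For ROBO2 the closest was a site on chromosome 2 nearest to RND3, with 14 of 16 libraries and an index of 0.875. Sites nearest to SERTAD4, LPIN1 and CES3 followed SMYD3 at 0.833, 0.833 and 0.824. For SMYD3 sites close after ROBO2 were those nearest to TANGO6 and MARCHF1, each at 0.769 with 10 HIF-2α libraries and no other antibody, then that near RND3 at 0.75. The pentamer had 3, 5, 4 and 1 matches at the RND3, SERTAD4, LPIN1 and CES3 sites, and 2 and 1 at those near TANGO6 and MARCHF1. Fewer matches than at the lead sites thus went with similar calls at some sites.

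The pentamer was noticed in the lead sites and then counted elsewhere. Of the 12 other sites in at least 10 HIF-2α libraries and at most 1 HIF-1β library, 2 held at least 4 matches, 16.7% (95% Clopper-Pearson interval 2.09% to 48.4%). With more than 1 HIF-1β library, 10 of 292 sites did, 3.42% (1.65% to 6.21%). The response element core was present in 2 of the 12 and in 246 of the 292, 84.2%. Among the 163 WT HIF-2α sites without HIF-1β, 21 held at least 4 matches, 12.9% (8.16% to 19%), against 2.69% of all 3750. These intervals cover counting error only, and the 163 include the SMYD3 lead site.

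The share of peaks with at least 4 matches in 300 bp at the peak centre was then compared between the HIF-2α and HIF-1α lists, leaving out all 43 ROBO2 and SMYD3 sites. At 6 h in 0.5% oxygen it was 2.20% and 2.29% for HIF-2α and 0.0765% and 0.336% for HIF-1α. At 16 h the values were 1.94% and 3.82% against 0.306% and 0.421%, and at 48 h 2.04% and 3.83% against 0.0936% and 0.564%. In 3% oxygen they were 2.92% and 3.32% against 0.247% and 0.307%. Both HIF-2α libraries thus lay above both HIF-1α libraries at each of these conditions. WT cells gave 2.33% and 2.83% against 1.10% and 1.70%, and RCC4 cells 1.38% and 1.39% against 0.458% and 0.571%. HepG2 differed, with 0.444% and 0.735% for HIF-2α and 0.483% and 0.954% for HIF-1α, overlapping ranges in libraries whose labels are uncertain. Averaged over all 7 conditions HIF-2α exceeded HIF-1α by 1.70 percentage points, with a higher mean in 6 of 7 (p = 3.57e-05, two-sided exact permutation test of antibody labels within conditions, 279936 arrangements; adjusted p = 0.000179 over 5 tests). The isoform and its antibody cannot be told apart in this comparison. Most of the conditions came from HKC-8 cells, and the same site can recur in many lists. The p-value therefore treats the libraries as more independent than they are. The pentamer was also picked from sites chosen in these same lists for HIF-2α peaks without HIF-1α. The direction of the difference was thus favoured in advance. Sites with calls like those of the lead sites, such as those nearest to SERTAD4 and LPIN1, stayed in. The difference is therefore a description, and its p-value is no independent evidence. The HIF-1β lists of these conditions held 0.295% to 1.59%. In HIF-1α knockout cells, which have no HIF-1α list to compare, HIF-2α gave 1.69% and 1.67%, below both WT HIF-2α libraries and just under the higher WT HIF-1α library. HIF-1α in HIF-2α knockout cells gave 1.34% and 0.659%.

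**Figure D5:**
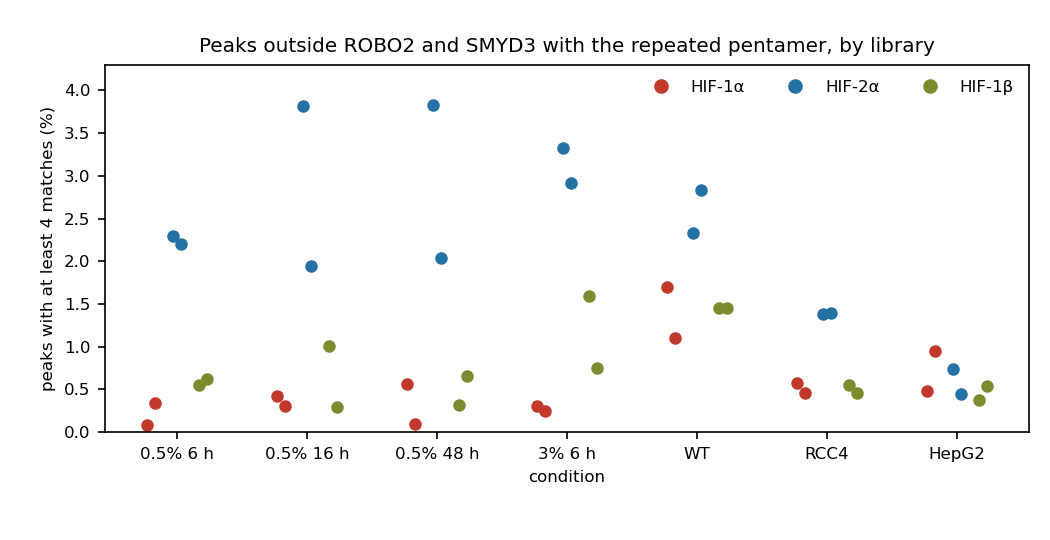
Share of peaks with at least 4 matches to the pentamer within 300 bp (y axis, percent) in each library outside ROBO2 and SMYD3, by condition (x axis) and antibody (colour). Each point is 1 library. The HIF-2α points lie above the HIF-1α points in 6 of 7 conditions and overlap them in HepG2.

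Genes that act with ROBO2 and SMYD3 were counted by the same region rule for WT cells. A HIF-2-only site was in both HIF-2α lists and neither HIF-1α list, a HIF-1-only site the reverse, and a shared site was in both lists of each isoform. Of all 19821 protein-coding genes 29.5% had a HIF-2-only site in their region, 4.66% a HIF-1-only site and 17.3% a shared site. In a list of 18 SLIT ligands, ROBO receptors and partners, 6 genes had a HIF-2-only site, 2 a HIF-1-only site and 2 a shared site. The median length of these 18 genes was 157.3 kb, against 27.0 kb for all genes, and longer genes take in more sites. SLIT3, a secreted ROBO ligand, had 3 HIF-2-only sites, and SRGAP1, which binds the inner part of ROBO receptors, and the cell-surface proteoglycan GPC1 had 2 each. ABL1, ENAH and SOS1, which act downstream of ROBO receptors, had 1 each. ABL1 also had 2 shared sites and SOS1 1 HIF-1-only site. SRGAP3 had 1 HIF-1-only site and the kinase PAK1 had 1 shared site. The 6 of 18 genes with a HIF-2-only site are a share near that of all genes. The receptors ROBO1, ROBO3 and ROBO4 and the ligands SLIT1 and SLIT2 had no site of any of the 3 kinds, although ROBO1 spans 1170.8 kb. ROBO2 itself had 1 HIF-2-only and 1 shared site. Of 6 genes for other SMYD proteins and SMYD3 partners, SMYD4 had 1 HIF-2-only site, SMYD1, a muscle methyltransferase, had 1 shared site, and 4 had none, among them MAP3K2. SMYD3 had 2 HIF-2-only sites and 1 shared site.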

How the data were processed

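ChIP-seq peak lists of 50 libraries were analysed. Per the labels and the study's methods, the authors trimmed reads with TrimGalore 0.3.3, aligned them to GRCh37 (hg19) with BWA 0.7.5a-r405, removed low-quality and black-listed alignments with SAMtools 0.1.19 and BEDTools 2.17.0, marked duplicates with Picard 1.106, and called peaks per library with MACS against input, without pooling. The second caller and background filter of the study were not applied to these lists. The deposited score of a peak, which starts at 50, was read as the MACS score and used only to rank or filter within a list. The percentile is 100 for the best peak, and 0 was used where no peak was found.

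Peaks on chromosomes 1 to 22, X and Y were merged over all libraries where they overlapped by at least 1 bp; 294 peaks elsewhere were left out. Genes and TSSs came from GENCODE 44 mapped to GRCh37, and sequence from the GRCh37 primary assembly. The lead site had the most HIF-2α libraries, with ties broken by all libraries and then by mean percentile. Sites in at least 2 libraries are described, and those in 1 library are counted. Up to 5 sites most alike each lead site are named, and an item of that comparison is not reported here. Groups came from the sample labels. Knockout values were compared by exact permutation of libraries, with Benjamini-Hochberg adjustment over 5 tests. The members, gene lists and tests were chosen with earlier results of these data known; the tests at the sites with most HIF-1β libraries and of the pentamer were added after the lists were examined. Scripts used Python 3.11.15, numpy 2.4.6, pandas 2.3.3, scipy 1.17.1 and pysam 0.24.0, and were checked on simulated data. Read depth is unknown, and list length limits what could be found. Alternatives were score filters, a 200 bp peak width, narrower gene regions, other controls and leaving out each replicate.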

Additional observations from a re-analysis of the deposited data

How the results depend on the processing

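The limit for a peak could only be raised, since the lists stop at a score of 50, so the counts of 0 were not tested against a lower limit. With a score of at least 100, or with the upper 50% of each list, HIF-2α stayed in 14 libraries at ROBO2 and 13 at SMYD3 and HIF-1α in 0, but the ROBO2 HIF-1β count and the knockout difference there became 0. ROBO2 then had 4 and 5 sites and SMYD3 8 and 10. The share of WT HIF-2α sites without HIF-1α was 66.3% and 63.9% under these filters, and the share of HIF-2-only HIF-1β sites without HIF-1β in HIF-2α knockout cells 80.1% and 77.8%. Leaving out 1 replicate number at a time gave 9 to 17 ROBO2 sites, 7 to 14 HIF-2α and 0 to 1 HIF-1β libraries at the ROBO2 lead, 6 to 13 HIF-2α libraries at the SMYD3 lead, a ROBO2 lead difference of 0 to 12.45, and shares of 70.3% to 82.5% and 77.6% to 86.5%. The counts fall because fewer libraries remain, and the single-list shares need a peak in 1 replicate only. The ROBO2 lead difference is 0 without replicate 2, which holds the only peak. Scoring a peak as present or absent made the SMYD3 +684.0 kb difference 0, since all 6 libraries had one.

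With the replicate number as a block (replicate block, 9 arrangements), the differences were 6.227 at the ROBO2 lead and 0 at the SMYD3 lead (exact permutation p = 1 for both), and 83.25 at ROBO2 +225.6 kb (exact permutation p = 0.222, the smallest possible). Same-numbered libraries correlated weakly but positively, at 0.0465 to 0.167, in their deviations from group means over 5046 sites. The main tests did not block on the number, and whether same-numbered libraries share a batch is not known. No test in the knockouts can pass 0.05 at this number of libraries. Alternatives for the pentamer difference were added after the data were examined. With the same measure and some libraries left out, the difference was 1.47 to 2.01 points. A 200 bp window gave 1.02 points and a limit of at least 3 matches gave 3.74, which are other measures. The exact permutation p over all of these was 2.14e-05 to 0.0312. These p-values have the same limits as the main one, of recurring sites, shared cells and a pentamer picked from these same lists. Gene body limits and 200 bp peaks left the site counts within 1.5 times.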
